A study of Mus musculus with 4 samples.

Results

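The central myelin genes are 9 genes of the oligodendrocyte and its sheath, chosen by symbol from a fixed list and written in capitals in the deposited table as MBP, MOBP, MOG, MAG, CNP, CLDN11, OPALIN, UGT8A and FA2H. Of these, 7 were listed at 7 days post injury (dpi), 6 at 21 dpi and 5 at both times, out of 14123 genes listed at 7 dpi and 11470 at 21 dpi. Cnp was listed at 21 dpi and Ugt8a and Fa2h at 7 dpi. Values of Mag were not analysed here.

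RNA was taken from the spinal cord segment that held a contusion lesion in 4 groups of male mice, which were ApoE3 and ApoE4 animals at 7 and at 21 dpi. Both genotypes are targeted replacement lines, whose Apoe locus encodes a human protein, ApoE3 or ApoE4, instead of the mouse one, and no uninjured group was used here. The study's methods give an age of 3 to 5 months at surgery, a moderate contusion of the thoracic cord under isoflurane, and N = 3 mice per genotype and time point. Single-end reads were made from TRIzol-extracted total RNA with a kit that does not mark strand, all libraries were thinned to the size of the smallest, and 1 library of a group that is not named aligned less well than the others.

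Each gene has 1 value per group, in FPKM, a measure scaled to transcript length and library size. The spread between mice is therefore unknown, and no difference below was tested. Levels of different genes are set side by side below, but how far their FPKM can be compared was not tested. The reads behind each value are unknown. Ratios are log2((FPKM + 1)/(FPKM + 1)), which pulls the ratios of weakly expressed genes toward 0, and a gene counted as past the fold when this ratio reached 1.3-fold, or 0.38 on the log2 scale. The genotype of the value columns can be read in 2 ways. The name of each comparison puts ApoE3 first, and that reading was used. The study likewise describes more genes as higher in ApoE4 than in ApoE3 at 21 dpi, from the same values. Its RT-qPCR and staining at another time do not settle the reading. Gfap, and by staining IBA-1, the protein of Aif1, were higher in ApoE4 there, as RNA of both was here at 21 dpi. At 7 dpi Gfap was nearly equal between the genotypes here and Aif1 slightly higher in ApoE4. Snap25 was lower in ApoE4 there, whereas here it was lower in ApoE4 at 7 dpi and higher at 21 dpi. The numbering of the columns puts ApoE4 first, and under it every genotype direction below would be the opposite and the changes between times would trade genotypes.

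Myelin of the central nervous system is the membrane that oligodendrocytes wrap around axons. Mbp holds the inner faces of the membrane together in compact myelin, and Mobp is a small basic protein of the same compartment. Mog and Opalin are membrane proteins of the oligodendrocyte, Mag faces the axon, Cnp lines the cytoplasmic channels that stay open in the sheath, and Cldn11 forms the tight junctions between its layers. Ugt8a and Fa2h make the galactolipids of the membrane, the first by adding galactose to ceramide and the second by hydroxylating its fatty acid. Mbp, Mag, Cnp, Ugt8a and Fa2h are also used by Schwann cells, the myelinating cells of peripheral nerve. Of central and peripheral myelin, Mobp, Mog, Cldn11 and Opalin largely belong to the central one. Whether cells other than oligodendrocytes express them in the segment was not examined. Contusion kills oligodendrocytes and strips axons of myelin, and new oligodendrocytes form from precursors in the following weeks.

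Mbp had the highest FPKM of all listed genes in each of the 4 groups. At 7 dpi its level was 120571 FPKM in the ApoE3 group and 127575 in the ApoE4 group, and 201348 in ApoE3 and 278678 in ApoE4 at 21 dpi. The gene next below it at 7 dpi was Gfap, the intermediate filament of astrocytes, and Mbp stood 9.73 times above it in ApoE3 and 10.3 times in ApoE4. Its annotation holds 16 transcripts, whose separate levels the values do not give.

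Mobp ranked number 8 among listed genes in every group. At 7 dpi it had 5869 FPKM in the ApoE3 group and 6068 in the ApoE4 group, and 8177 and 11960.4 at 21 dpi. Both compact myelin genes were thus lowest in ApoE3 at 7 dpi and highest in ApoE4 at 21 dpi. The ratio of Mbp to Mobp was 20.5 in ApoE3 and 21.0 in ApoE4 at 7 dpi, and 24.6 and 23.3 at 21 dpi. An unclassified transcript, Gm38642, shares exon sequence with Mobp on the same strand, so reads of the shared part may belong to either.

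At 7 dpi Mog had 248 FPKM in the ApoE3 group and 209.9 in the ApoE4 group, and 255 and 372 at 21 dpi. Opalin was the lowest of the listed members, at 7 dpi with 18.3 FPKM in the ApoE3 group and 14.8 in the ApoE4 group, and with 31.3 and 47.6 at 21 dpi. At 21 dpi Cnp had 2055 FPKM in the ApoE3 group and 2845 in the ApoE4 group, between Mobp and Mog. Mog and Opalin thus had their lowest value in ApoE4 at 7 dpi and their highest in ApoE4 at 21 dpi. Cnp shares exon sequence with Dnajc7 on the opposite strand, and the kit does not mark strand, so its value is uncertain to that extent.

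At 7 dpi Cldn11 had 286 FPKM in the ApoE3 group and 265 in the ApoE4 group, and 218 and 315 at 21 dpi. It was the one member listed at both times with its lowest value in ApoE3 at 21 dpi. Its place relative to Mog also differed between the times. Mog stood at 0.867 of Cldn11 in ApoE3 and 0.793 in ApoE4 at 7 dpi, and at 1.17 and 1.18 times Cldn11 at 21 dpi. Of the galactolipid enzymes at 7 dpi, Ugt8a had 259.7 FPKM in the ApoE3 group and 230.5 in the ApoE4 group. Fa2h had 58.3 FPKM in the ApoE3 group and 52.3 in the ApoE4 group at that time.

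**Figure D1:**
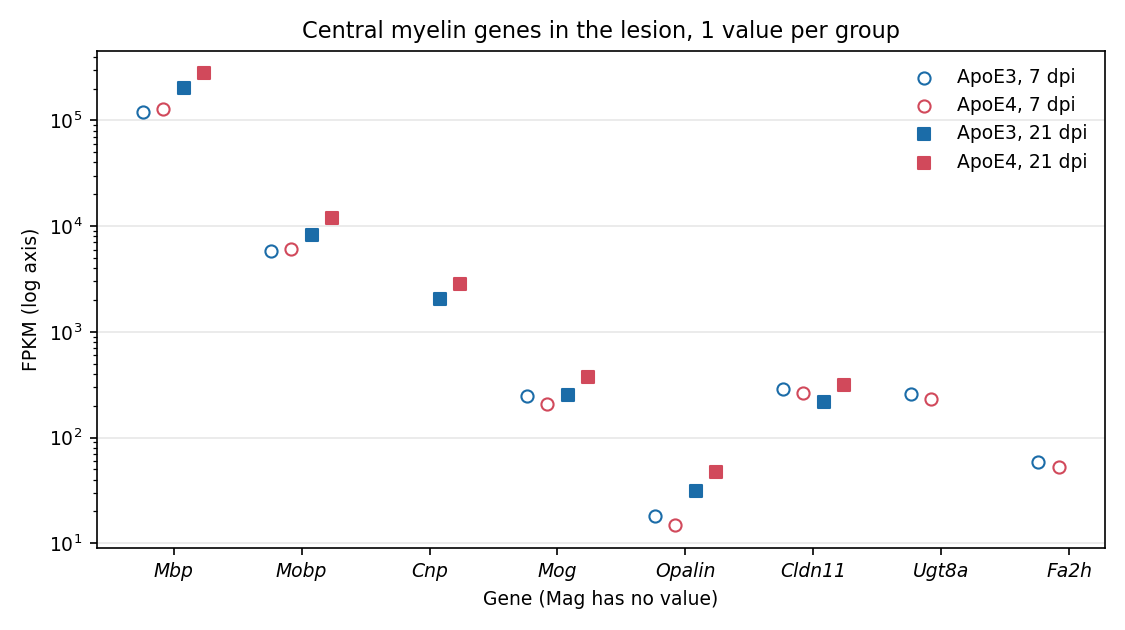
FPKM on a log axis of the 8 listed central myelin genes, with circles for 7 dpi, squares for 21 dpi, blue for ApoE3 and red for ApoE4, and 1 value per group. Mbp lies between 120571 and 278678 FPKM in all groups, Opalin between 14.8 and 47.6.

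The upstream sequences of Mobp, Mog, Cnp and Opalin are shown because each holds letters bound by known oligodendrocyte factors. RefSeq promoter entries were found for 7 of the 9 members, and the 250 bases before the start of transcription were searched on both strands. Capitals mark ACAAAG, a core recognised by Sox proteins such as Sox10, and CTGGCAC or CTGGTAC, the letters bound by Myrf, each in the orientation in which they occur. The build is GRCm38.p6. The Mobp window is chr9:120149492-120149741 on the plus strand, that of Mog chr17:37023399-37023648 on the minus strand, that of Cnp chr11:100574689-100574938 on the plus strand and that of Opalin chr19:41077114-41077363 on the minus strand.
Mobp: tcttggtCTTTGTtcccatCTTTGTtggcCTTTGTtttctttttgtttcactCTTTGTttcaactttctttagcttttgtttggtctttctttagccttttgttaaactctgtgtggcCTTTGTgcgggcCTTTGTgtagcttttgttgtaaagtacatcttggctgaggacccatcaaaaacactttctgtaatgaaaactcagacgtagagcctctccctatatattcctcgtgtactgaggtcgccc
Mog: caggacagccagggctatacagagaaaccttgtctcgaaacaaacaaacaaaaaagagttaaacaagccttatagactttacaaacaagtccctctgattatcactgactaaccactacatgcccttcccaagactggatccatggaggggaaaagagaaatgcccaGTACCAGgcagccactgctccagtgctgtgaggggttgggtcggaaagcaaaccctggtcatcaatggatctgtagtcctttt
Cnp: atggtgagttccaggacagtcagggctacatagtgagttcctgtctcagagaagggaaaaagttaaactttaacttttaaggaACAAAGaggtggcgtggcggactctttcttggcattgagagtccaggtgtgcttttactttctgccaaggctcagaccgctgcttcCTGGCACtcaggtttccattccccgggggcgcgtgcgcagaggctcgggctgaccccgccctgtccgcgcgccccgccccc
Opalin: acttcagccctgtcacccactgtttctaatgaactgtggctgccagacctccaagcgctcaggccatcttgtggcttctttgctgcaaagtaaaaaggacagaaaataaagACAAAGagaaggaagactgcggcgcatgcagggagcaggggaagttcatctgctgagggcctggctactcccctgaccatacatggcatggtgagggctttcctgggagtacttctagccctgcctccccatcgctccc

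Mobp held ACAAAG at 6 places, all in the reverse orientation, and it was the 1 entry among 32851 with at least 6. Opalin and Cnp held it once each, as did 2 of the 3 entries of Mag, and 16.5% of all promoters hold it in the same window. Cnp and the same entries of Mag held CTGGCAC, found in 4.19% of promoters, and Mog held CTGGTAC, found in 1.83%. No capital letters of different motifs overlap in the 4 windows. Cldn11 and Ugt8a held neither motif. In all, 9 motifs were searched, and the others were AACAAT (9.42% of promoters), ACAATG (10.7%), CANCTG (44.8%), TATAAA (12.4%), GGGCGG (32.7%) and CCAAT (33.8%). No member window held AACAAT, and the same was true of ACAATG and of TATAAA. A match is a run of letters and not a binding site.

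The comparison of ApoE3 with ApoE4 at 7 dpi asks how the genotypes differ early after injury, and no central myelin gene passed the fold. Of the 7 listed members, 0 were past 1.3-fold higher in ApoE3, beside 3.78% of all listed genes, and 0 were past it higher in ApoE4, beside 4.76%. The median log2 ratio of the members was 0.15, beside 0.00 for all genes and an upper quartile of 0.12, and 3 of the 7 lay between the quartiles. Mbp had a log2 ratio of -0.08 and Mobp of -0.05, both slightly higher in ApoE4. The other 5 members were slightly higher in ApoE3, from 0.11 for Cldn11 through 0.15 for Fa2h, 0.17 for Ugt8a and 0.24 for Mog to 0.29 for Opalin. Mog and Opalin stood at percentiles 88.9 and 92.6 of all listed genes. In bulk tissue, fewer cells of a type and less RNA per cell cannot be told apart.

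At 21 dpi each of the 6 members had more FPKM in ApoE4 than in ApoE3, as most genes did. Over genes averaging at least 1 FPKM, the middle log2 ratio was -0.42, and 93.8% of listed genes were lower in ApoE3. All listed genes together had 1513370.2 FPKM in the ApoE3 group and 2049970.4 in the ApoE4 group, whereas at 7 dpi they had 1668601 and 1668668. What set these sums apart was not tested.

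Past 1.3-fold, 6 of 6 members were higher in ApoE4, beside 58.9% of listed genes, and 0 were higher in ApoE3, beside 2.01%. Mbp was 1.38-fold higher in ApoE4, Cnp 1.38-fold, Cldn11 1.45-fold, Mog 1.46-fold, Mobp 1.46-fold and Opalin, with a log2 ratio of -0.59, somewhat more. Relative to the median of genes, 0 of 6 members were past the fold toward ApoE4, beside 8.06%, and 0 toward ApoE3, beside 7.46%. On that scale their log2 ratios ran from -0.17 for Opalin to -0.05 for Mbp and Cnp, with a median of -0.11. Of the 6 members, 5 lay between the quartiles of all genes, and Opalin was the exception. The members thus lay close to the general difference between the groups, and none of their counts past the fold remained once that difference was subtracted.

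Their ratios at 21 dpi spanned 0.12 log2 units, from -0.59 to -0.47, beside 0.37 units at 7 dpi, and the middle 50% of all genes spanned 0.29 units at 21 dpi and 0.24 at 7 dpi. Mbp and Cnp, which Schwann cells also use, were both at -0.47. The 4 genes of central rather than peripheral myelin, Mobp, Mog, Cldn11 and Opalin, ran from -0.59 to -0.53, with a median of -0.55. The difference between these members was not tested.

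**Figure D2:**
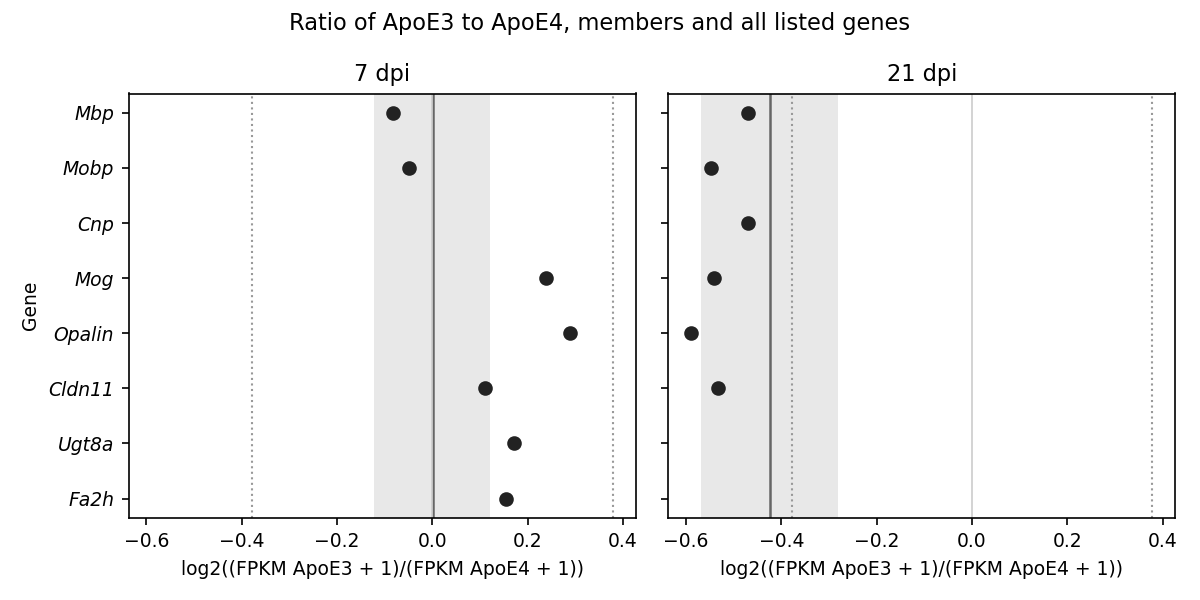
Log2 ratio of ApoE3 to ApoE4 of each central myelin gene (black points) at 7 dpi (left) and 21 dpi (right), with the median of all listed genes (dark line), their middle 50% (grey band) and 1.3-fold in each direction (dotted lines). At 21 dpi the 6 members lie from -0.59 to -0.47, close to the median of all genes at -0.42.

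Between 7 and 21 dpi most of the members had higher values at the later time. The 2 times were compared in separate rows of the table, and no source used here says that they were scaled together, so these ratios also carry any difference in scaling. In ApoE3 the 5 members listed at both times had a median log2 ratio of 21 to 7 dpi of 0.48, beside 0.09 for all genes. Mbp was at 0.74, Opalin at 0.74, Mobp at 0.48, Mog at 0.04 and Cldn11 at -0.39. Past 1.3-fold, 3 of 5 members were higher at 21 dpi, beside 31.3% of genes, and Cldn11 was 1 of 5 that was lower, beside 23.6%. Relative to the median of genes, 3 of 5 were higher, beside 26.6%, and 1 of 5 was lower, beside 27.7%.

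In ApoE4 the median log2 ratio of 21 to 7 dpi of the same 5 members was 0.98, beside 0.53 for all genes. Opalin was at 1.62, Mbp at 1.13, Mobp at 0.98, Mog at 0.82 and Cldn11 at 0.25. Past 1.3-fold, 4 of 5 were higher at 21 dpi, beside 59.0% of genes, and 0 were lower, beside 10.9%. Relative to the median of genes, 3 of 5 were higher, beside 26.1%, and 0 were lower, beside 28.6%. Relative to the summed FPKM of the genes listed at both times, the medians were 0.20 in ApoE3 and 0.27 in ApoE4. Both were short of 1.3-fold, and 2 of 5 members were higher and 1 lower in each genotype on that scale. The share of all genes past the fold on it is not given here. With the median of genes subtracted, Mog was at 0.30 in ApoE4 and at -0.05 in ApoE3, and Cldn11 was below the median in both genotypes, at -0.28 and -0.48. Mbp was at 0.65 in ApoE3 and 0.60 in ApoE4. The difference between the genotypes in these changes was not tested.

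The members made up 7.63% of the summed FPKM of listed genes in ApoE3 and 8.06% in ApoE4 at 7 dpi, and 14.0% and 14.4% at 21 dpi. Nearly all of it was Mbp, at 7.23% and 7.65% at 7 dpi and 13.3% and 13.6% at 21 dpi. Without Mbp in the sum, the other members made up 0.435% in ApoE3 and 0.444% in ApoE4 at 7 dpi, and 0.818% and 0.877% at 21 dpi. The sums rest on different genes, since Cnp was listed at 21 dpi alone and 14123 genes were listed at 7 dpi and 11470 at 21 dpi. Over the 10876 genes listed at both times, the 5 members listed at both held 10.6% and 11.2% at 7 dpi, and 14.5% and 14.9% at 21 dpi. Over the same genes without Mbp, the 4 others held 0.597% and 0.612% at 7 dpi, and 0.697% and 0.758% at 21 dpi.

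Of the members' own profiles, those of Mobp and Mbp lay closest to the median profile of the members. Distances between the other members were not computed. Over the 4 groups, each gene's log2(FPKM + 1) was set against its own mean and compared with the median profile of the 5 members listed at both times, which is that of Mobp itself. Mbp differed from it by a root mean square of 0.11 log2 units, Mog by 0.18, Opalin by 0.26 and Cldn11 by 0.40. Of 8506 other genes with a mean of at least 10 FPKM, 11.2% lay closer to the profile than Mbp and 70.0% lay closer than Cldn11, so the profile is common among genes at large. The 5 closest were Mcee, Mob4, Farsa, Cep83 and St3gal5, with differences of 0.0057, 0.0066, 0.0092, 0.012 and 0.013. At 7 dpi Mcee had 34.6 FPKM in the ApoE3 group and 35.9 in the ApoE4 group, and 48.9 and 71.2 at 21 dpi.

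Other genes of the lineage are set beside the members here. Of 28 other mature oligodendrocyte and myelin genes, 25 were listed at 7 dpi with a median log2 ratio of ApoE3 to ApoE4 of 0.02, and 22 at 21 dpi with a median of -0.49. Past 1.3-fold, 15 of the 22 were higher in ApoE4 at 21 dpi and 0 in ApoE3, beside 58.9% and 2.01% of all listed genes. Relative to the median of genes, 2 were higher in ApoE4 and 1 (Dusp15, singled out after its values were seen) in ApoE3, beside 8.06% and 7.46%. Bcas1 had 4849 FPKM in the ApoE3 group and 5079.9 in the ApoE4 group at 7 dpi and 7241 and 8971 at 21 dpi. Plekhb1 had 5119 and 4997 FPKM at 7 dpi and 10038.7 and 13247 at 21 dpi, and its log2 ratio at 21 dpi of -0.40 became 0.02 relative to the median of genes. Between the times, the 21 genes listed at both had a median log2 ratio of 0.12 in ApoE3 and 0.82 in ApoE4.

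Of 9 transcription factors of the lineage, all were listed at 7 dpi with a median log2 ratio of -0.17, beside 0.00 for all genes, and 8 at 21 dpi with a median of -0.40, which is 0.03 relative to the median of genes. At 7 dpi Myrf, which drives myelin genes, had 539 FPKM in the ApoE3 group and 480.3 in the ApoE4 group, and 412 and 542 at 21 dpi. Olig1 had 139 and 156 FPKM at 7 dpi and 161 and 242 at 21 dpi, and Tcf7l2, a factor of newly formed oligodendrocytes, 195 and 221 FPKM at 7 dpi and 99.3 and 122 at 21 dpi. Between 7 and 21 dpi Mbp, Mobp and Opalin were higher at the later time. Mog had log2 ratios of 0.04 in ApoE3 and 0.82 in ApoE4, and Cldn11 of -0.39 and 0.25. Most precursor and newly formed oligodendrocyte genes were lower at 21 than at 7 dpi. Of the 9 listed at both times, 7 were past 1.3-fold lower at 21 dpi in ApoE3 and 5 in ApoE4, beside 23.6% and 10.9% of genes. Their median log2 ratios were -1.01 and -0.42, beside 0.09 and 0.53 for all genes. Relative to the median of genes, 7 were lower in ApoE3 and 8 in ApoE4, beside 27.7% and 28.6%, with medians of -1.10 and -0.95. At 7 dpi Tnr had 225 FPKM in the ApoE3 group and 224 in the ApoE4 group, and 64.4 and 93.3 at 21 dpi. Ptprz1 had 196 and 190.4 FPKM at 7 dpi and 78.0 and 153 at 21 dpi. Between genotypes, the median log2 ratio of the 10 precursor genes was -0.11 at 7 dpi, and that of the 9 listed at 21 dpi was -0.47. Pcdh15 had 83.6 and 106 FPKM at 7 dpi, and 87.9 and 118 at 21 dpi.

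Genes of cholesterol synthesis, which supplies myelin membrane, had a median log2 ratio of ApoE3 to ApoE4 of 0.15 at 7 dpi over 15 genes. At 21 dpi the median was -0.39 over 14 genes, which is 0.03 relative to the median of genes. At 7 dpi Dhcr7 had 155 FPKM in the ApoE3 group and 136 in the ApoE4 group, and 146 and 175 at 21 dpi. Hmgcs1 had 138 and 129.6 FPKM at 7 dpi and 143 and 201 at 21 dpi, and Fdft1 had 98.3 and 83.8 FPKM at 7 dpi and 151 and 185 at 21 dpi. Of the paranodal and juxtaparanodal genes, where the sheath meets the axon, 8 were listed at 7 dpi with a median of 0.17. At 21 dpi 6 were listed with a median of -0.38, which is 0.04 relative to the median of genes. Nfasc, in both this list and that of mature oligodendrocyte genes, had 5359 and 5006 FPKM at 7 dpi and 2891 and 3684 at 21 dpi. Cntn1 had 296 and 269 FPKM at 7 dpi and 207 and 367 at 21 dpi, and Epb41l3 had 4768 and 4346 FPKM at 7 dpi.

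**Figure D3:**
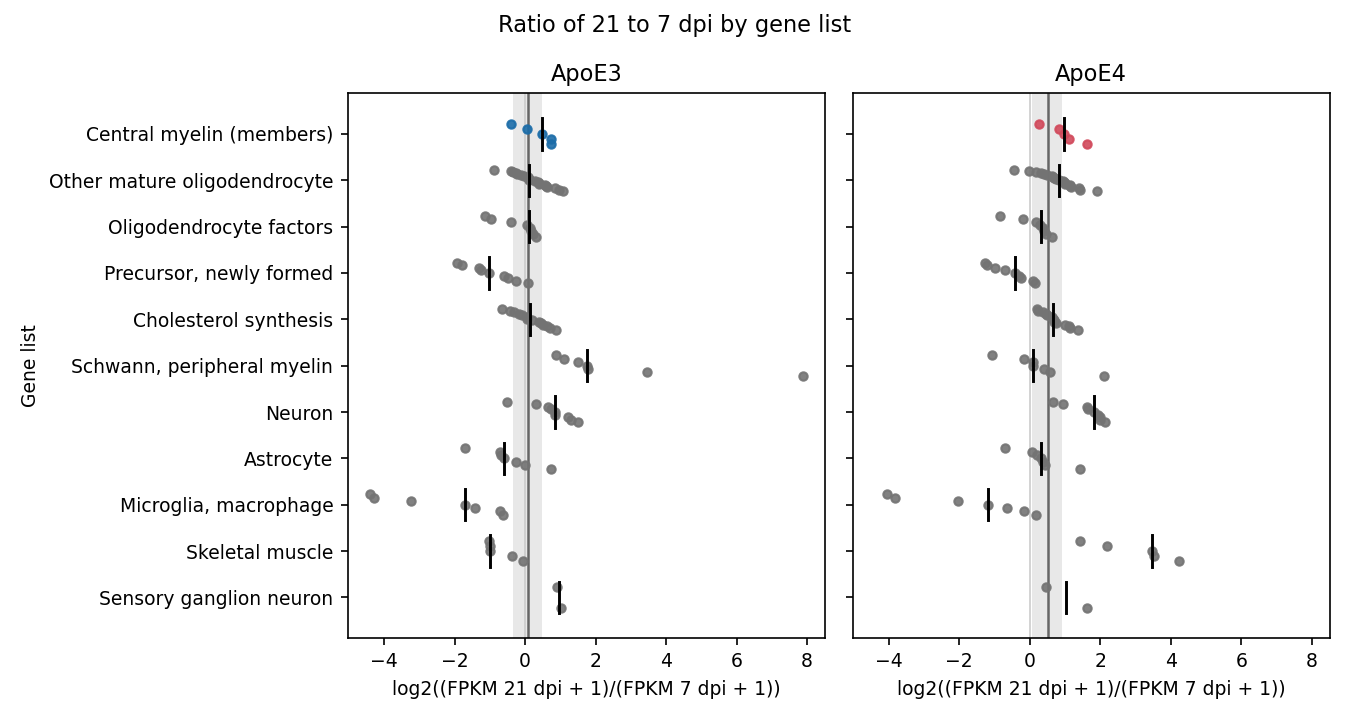
Log2 ratio of 21 to 7 dpi in ApoE3 (left) and ApoE4 (right), with 1 point per gene, a black bar for the median of each list, and the median and middle 50% of all listed genes as a dark line and a grey band. The central myelin genes (coloured) have medians of 0.48 and 0.98, and the precursor genes lie lower, at -1.01 and -0.42.

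Markers of other cells differed between the groups as well, and their part in the values of the members was not tested. Peripheral myelin was far from central myelin at 21 dpi. Of 11 Schwann cell and peripheral myelin genes, 10 were listed at 21 dpi and all 10 were past 1.3-fold toward ApoE3, beside 2.01% of all listed genes. Their median was 1.53 on the log2 scale, beside -0.54 for the central myelin genes. Pmp22, the most abundant, had 693 FPKM in the ApoE3 group and 671 in the ApoE4 group at 7 dpi and 1970.0 and 992 at 21 dpi. Drp2 had 83.9 and 81.7 FPKM at 7 dpi and 294 and 109 at 21 dpi. Over 7 genes at 7 dpi the list summed to 825 FPKM in ApoE3 and 819 in ApoE4, and to 3367 and 1189 at 21 dpi over 10, and no listed gene was at 0. At 21 dpi Mbp and Cnp, which both glia use, were lower in ApoE3 by 0.47 on the log2 scale while Pmp22 was higher there.

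Neuron genes lay toward ApoE3 at 7 dpi in 10 of 10 listed, beside 50.5% of all listed genes, with 1 of them (Snap25) past 1.3-fold. Their median was 0.26, and they had a median of -0.55 over 9 genes at 21 dpi, beside -0.42 for all genes. With that subtracted, the neuron, astrocyte and microglia and macrophage lists were at -0.13, -0.29 and -0.34, each short of 1.3-fold. At 7 dpi the neuron list summed to 10049.5 FPKM in ApoE3 and 7864 in ApoE4, and to 11503 and 17742 at 21 dpi, with Map2 the most abundant at 7 dpi and Snap25, at 5336 and 7812, at 21 dpi. Astrocyte genes had medians of 0.06 over 7 genes and -0.72 over 8, and summed to 17481 and 17059.7 FPKM at 7 dpi and 14007 and 24309 at 21 dpi, and Gfap, the most abundant, had 12395 and 12386 FPKM at 7 dpi and 8201 and 15313 at 21 dpi. Microglia and macrophage genes had medians of -0.20 over 9 genes and -0.77 over 7 and summed to 7429 and 9591 FPKM at 7 dpi and 568 and 1052 at 21 dpi, and Lyz2, the most abundant, had 4522 and 6076 FPKM at 7 dpi and 212 and 426 at 21 dpi. Over 6 genes at 7 dpi, skeletal muscle summed to 61.9 FPKM in ApoE3 and 43.2 in ApoE4, and to 28.6 and 663 at 21 dpi over 6, with Tnnt3 the most abundant and Myh4 listed at 0 in ApoE3 at 21 dpi. Sensory ganglion genes summed to 484 and 364 FPKM at 7 dpi over 3 genes, and to 786 and 833 at 21 dpi over 8, with Calca the most abundant and Mrgprd and Trpv1 listed at 0 in ApoE4 at 21 dpi. Without Calca, 7 of these genes were past 1.3-fold higher in ApoE3 at 21 dpi, beside 2.01% of all listed genes.

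**Figure D4:**
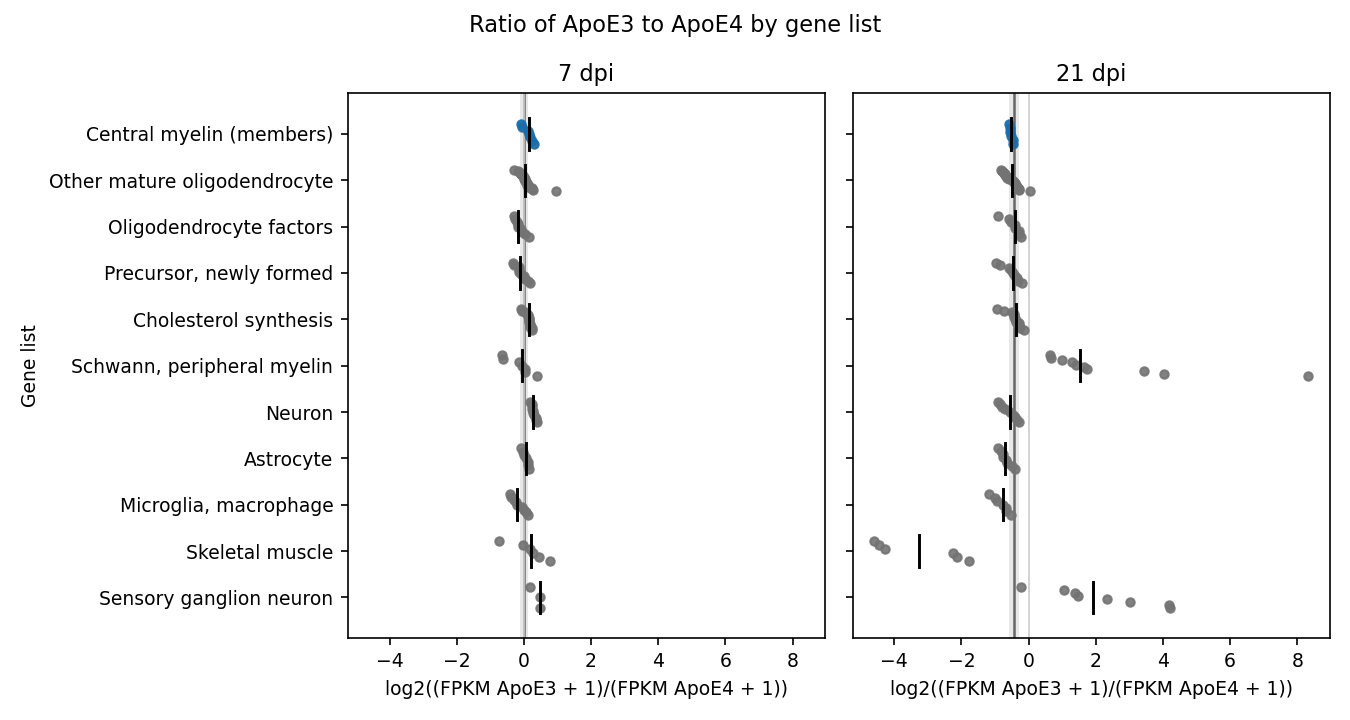
Log2 ratio of ApoE3 to ApoE4 at 7 dpi (left) and 21 dpi (right) by gene list, with 1 point per gene, a black bar for each list's median, and the median and middle 50% of all listed genes as a dark line and a grey band. At 21 dpi the central myelin genes (blue) have a median of -0.54 and the Schwann cell list one of 1.53.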

How the data were processed

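RNA-seq of lesion segments was available as 1 value per gene and group for 4 groups. The deposited values are FPKM to which the authors had added 1, which was subtracted. The submitters' processing notes name STAR 2.5.4b, Bowtie2 2.1.10, SAMtools 0.1.7 and Cuffdiff 1.3.0, and the genome build and annotation are not given in the sources used here. P, Q, fold changes and calls of significance by the authors fill further columns, and another table lists the genes they called. None of these was used, and 0 value columns lacked a group. Libraries had been down-sampled to the smallest before alignment, and the reads behind each gene are unknown.

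Symbols on more than 1 row of a time point were left out (3 symbols). Log2 ratios used a pseudocount of 1 and were read as they stand and after subtracting the median over genes averaging at least 1 FPKM. No test was run. The alternatives were other pseudocounts, a minimum FPKM, centring, a fold of 1.5 and members of central rather than peripheral myelin. The mean in place of the median and the other reading of the columns were also tried. Scaling by summed FPKM, and the sums without Mbp, over genes listed at both times, or with both changes, were added after the values were seen. The scaling used the sum of all listed genes between genotypes, and that of genes listed at both times between the times. Sums of all listed genes were not tried for the change between the times.

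The members and gene lists were chosen with earlier results of these data known. Named genes were the 9 members, the 3 highest of each other list, genes past the fold in the oligodendrocyte and Schwann cell lists, and the 5 closest profiles. Which of them were printed as examples, and which motifs were marked, was decided after the values and sequences were seen, as were Aif1, Dusp15 and the markers at 0, which are outside this rule. Values of some genes are not reported here. All 136 list symbols matched the mouse reference names. Promoters were RefSeq entries of GRCm38.p6, and exon overlaps came from GENCODE vM21. Computations used Python 3.11.15, numpy 2.4.6, pandas 2.3.3 and matplotlib 3.10.9, and were tested on simulated data.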

Additional observations from a re-analysis of the deposited data

Results flagged for a closer look

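Some genes and lists had log2 ratios of ApoE3 to ApoE4 of opposite sign at 7 and 21 dpi, both as they stand and relative to the median of genes. With 1 value per group, the difference between the times was not tested for any of them. Among the central myelin genes these were Opalin, with a ratio at 21 dpi minus that at 7 dpi of -0.88, Mog with -0.78 and Cldn11 with -0.64. The median of all listed members differed by -0.69, but over 7 genes at 7 dpi and 6 at 21 dpi. Medians of lists, here and below, rest on the genes listed at each time, which are not all the same. Mbp and Mobp were higher in ApoE4 at both times and are not among the flagged genes. The shift of all genes at 21 dpi makes up much of the negative differences. Without it they were -0.45 for Opalin, -0.36 for Mog, -0.22 for Cldn11 and -0.27 for the members' median.

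In peripheral glia the differences ran the other way, with 1.69 for Ngfr, 1.28 for Egr2, 0.81 for Gldn and 1.58 for the median of the Schwann cell list, and without the shift they were larger. These sizes depend on the pseudocount where FPKM is low. With 0.01 FPKM in place of 1, Gldn had log2 ratios of -0.32 at 7 dpi and 1.13 at 21 dpi, against -0.14 and 0.67. In other glia they were -1.00 for Ptprz1, -0.53 for Tnr, -0.98 for Aqp4, -0.51 for the median of the other mature oligodendrocyte genes and -0.77 for that of the astrocyte genes. Without the shift, Tnr was at -0.11, Ptprz1 at -0.57 and Aqp4 at -0.55. The other mature oligodendrocyte genes were then at -0.09 and the astrocyte genes at -0.35. Single genes of the mature oligodendrocyte list also changed sign. Among them, Ninj2 had log2 ratios of 0.95 at 7 dpi and -0.67 at 21 dpi, Aspa 0.24 and -0.82, and Tspan2 0.28 and -0.70. Relative to the median of genes, these 21 dpi ratios were -0.24, -0.40 and -0.28. In neurons and at the junction of axon and glia the differences were -1.16 for Map2, -0.96 for Cntn1 and -0.95 for Snap25. The median of the neuron list differed by -0.81. Without the shift these were -0.74, -0.53, -0.53 and -0.39. Hmgcs1 differed by -0.58, or -0.15 without the shift, Tnnt3 by -5.22, Acta1 by -4.55 and the median of the skeletal muscle list by -3.49.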

How the results depend on the processing

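Alternatives with no replicates were called unchanged when a median moved by less than 0.1 log2 units on the same side of 1.3-fold, a count by at most 1.5 times and a share by less than 1 percentage point. Of the 90 alternative values for the members' medians, counts and shares, 65 were unchanged, among them all those with a pseudocount of 0.1 or 0.01 and with a minimum of 1 FPKM. The lowest value of a listed member was 14.8 FPKM, so that minimum removed no member and the pseudocounts could move their ratios little. These settings are therefore no check on the members, and the count of unchanged values includes them. At 21 dpi, the members' median log2 ratio of -0.54 became -0.11 relative to the median of genes and -0.10 relative to the summed FPKM, and the 6 members past the fold became 0 under each. A fold of 1.5 gave 1. Relative to the median of genes, 8.06% of all listed genes were past 1.3-fold toward ApoE4. Shares of all genes at a fold of 1.5 or relative to the summed FPKM are not given, here or below. By the numbering of the columns, the median was 0.54 at 21 dpi and -0.15 at 7 dpi.

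Between the times, the median in ApoE3 was 0.20 relative to the summed FPKM of genes listed at both times. It was 0.26 for the genes of central rather than peripheral myelin and 0.32 as a mean, and a fold of 1.5 left 0 members lower. In ApoE4 it was 0.45 relative to the median of genes and 0.27 relative to the summed FPKM of genes listed at both times. That sum also gave 2 members higher and 1 lower, with no share of all genes beside them. Shares over genes listed at both times were 10.6% in ApoE3 and 11.2% in ApoE4 at 7 dpi. Without Mbp they were 0.435% and 0.444% at 7 dpi and 0.818% and 0.877% at 21 dpi, and with both changes 0.597% and 0.612% at 7 dpi and 0.697% and 0.758% at 21 dpi. Relative to the median of genes, ratios at 21 dpi that were past 1.3-fold as they stand changed sign to 0.0271 for the transcription factor list, 0.0335 for cholesterol synthesis, 0.0445 for the paranodal list, 0.0234 for Plekhb1, 0.0293 for Myrf and 0.00666 for Pcdh15. Among the 3 highest genes of each list, ratios short of 1.3-fold at 21 dpi changed sign for Bcas1, to 0.11, and Tcf7l2, to 0.13. So did those of Dhcr7, to 0.16, Fdft1, to 0.13, Nfasc, to 0.07, and Calca, to 0.18. Other genes of the lists, both past 1.3-fold and short of it, also changed sign. Between the times, Cldn11 in ApoE4 changed to -0.28 and Mog in ApoE3 to -0.05. In ApoE4 so did the medians of the transcription factors, to -0.20, Schwann cell genes, to -0.44, and astrocyte genes, to -0.22. Lists with low FPKM depended on the pseudocount. With 0.01, medians at 21 dpi were 1.92 for Schwann cell genes, -4.66 for muscle and 5.25 for sensory ganglion, against 1.53, -3.26 and 1.90. The cause of these differences was not tested. The tolerances were set by hand. Read depth of single genes is unknown, and counting error is not given.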
